A study of Homo sapiens with 4 samples.

Results

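The peaks described here were those whose annotation placed them on an exon of a non-coding transcript, in a list of sites obtained by immunoprecipitating RNA with HuR from the human cell line MDA-MB-231, a model of triple-negative breast cancer. They were chosen by that annotation alone and numbered 487 of 14149 peaks, or 3.44% (95% interval 3.15 to 3.76%). Lysate was precipitated with a mouse antibody against HuR in 2 samples and with mouse IgG as the control in 2 others, and the libraries were made with the TruSeq RNA kit v2 and no poly(A) selection. A single deposited list covers all 4 samples and carries no values per sample, so neither enrichment of a site over IgG nor replicate spread was measured here. Intervals on shares below are Wilson 95% intervals, which cover counting error only and treat peaks as separate although neighbouring peaks share a transcript.

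HuR (ELAVL1) is an RNA-binding protein of the Hu family that binds AU-rich and U-rich stretches, mostly in mature mRNA and in introns, and that is best known for prolonging the life of mRNAs. RefSeq gives a transcript a non-coding label in several distinct situations. A long non-coding RNA (lncRNA) comes from a gene with no known protein, a pseudogene is a copy of a coding gene that has lost its reading frame, and many ordinary protein-coding genes also have isoforms classed as non-coding because their splicing disrupts the open reading frame. A peak on the last kind therefore lies on a gene that makes mRNA too.

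The 487 peaks lay on 268 transcripts, and the transcript of 474 peaks could be matched to 1 of 260 RefSeq genes. Most of the hosts were protein-coding genes. There were 388 peaks on isoforms of 203 protein-coding genes, which was 79.7% of the peaks (75.9 to 83.0%). lncRNA genes held 70 peaks in 46 genes, or 14.4% (11.5 to 17.8%), and pseudogenes held 16 peaks in 11 genes, or 3.29% (2.03 to 5.27%). The remaining 13 peaks had 6 transcripts that matched no gene of the RefSeq table. The centres of those 13 peaks lay on exons of FUT8, SHOC2, PSTK or IKZF5, DLEU2, ZNF738 and FAM193B, and 2 of them were on DLEU2, an lncRNA gene that hosts microRNAs.

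Sequences are shown for the strongest peaks of lncRNA genes that touched no exon of a protein-coding gene, because these are the sites where the non-coding gene had no coding neighbour under the peak. They are the central 300 bases of the peaks, read from hg38 on the strand of the gene from 5′ to 3′. Capitals mark ATTTA, the AU-rich pentamer, and runs of at least 5 T, the DNA letters for a U run. The first pair is from MIR100HG, whose primary transcript contains miR-100, let-7a-2 and miR-125b-1, and is its best peak and its peak that does not overlap the best. The others are the highest peaks of LINC00339, ZBED5-AS1 and LINC02987.
MIR100HG, chr11:122090731-122091030, minus strand: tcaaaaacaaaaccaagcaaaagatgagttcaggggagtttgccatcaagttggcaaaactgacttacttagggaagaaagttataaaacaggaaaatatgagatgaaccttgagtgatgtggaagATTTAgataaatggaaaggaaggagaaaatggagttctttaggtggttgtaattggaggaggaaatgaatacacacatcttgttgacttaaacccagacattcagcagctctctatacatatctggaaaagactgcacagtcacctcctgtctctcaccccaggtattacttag
MIR100HG, chr11:122089240-122089539, minus strand: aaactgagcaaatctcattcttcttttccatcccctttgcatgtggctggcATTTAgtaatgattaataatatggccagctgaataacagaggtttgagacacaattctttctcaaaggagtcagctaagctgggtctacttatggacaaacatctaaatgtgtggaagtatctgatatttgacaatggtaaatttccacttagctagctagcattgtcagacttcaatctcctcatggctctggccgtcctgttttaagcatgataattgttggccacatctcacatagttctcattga
LINC00339, chr1:22030503-22030802, plus strand: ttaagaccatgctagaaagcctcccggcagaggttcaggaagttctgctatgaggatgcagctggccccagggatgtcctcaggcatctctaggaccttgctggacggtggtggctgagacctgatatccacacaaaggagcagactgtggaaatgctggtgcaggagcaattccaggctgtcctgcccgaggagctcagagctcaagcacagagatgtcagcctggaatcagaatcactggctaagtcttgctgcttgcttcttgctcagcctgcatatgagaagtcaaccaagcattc
ZBED5-AS1, chr11:10878795-10879094, plus strand: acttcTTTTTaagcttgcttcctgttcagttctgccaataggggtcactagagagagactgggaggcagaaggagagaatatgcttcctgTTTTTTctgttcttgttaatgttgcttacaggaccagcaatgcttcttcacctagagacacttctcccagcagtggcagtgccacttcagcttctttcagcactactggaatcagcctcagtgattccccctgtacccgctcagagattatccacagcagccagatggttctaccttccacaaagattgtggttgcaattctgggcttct
LINC02987, chr19:27797948-27798247, plus strand: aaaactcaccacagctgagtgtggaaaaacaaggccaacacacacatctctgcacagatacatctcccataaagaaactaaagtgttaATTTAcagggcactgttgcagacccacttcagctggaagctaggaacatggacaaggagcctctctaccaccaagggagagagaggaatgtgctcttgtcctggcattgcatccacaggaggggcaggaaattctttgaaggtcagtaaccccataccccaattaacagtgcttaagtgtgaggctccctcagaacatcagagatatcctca
The MIR100HG sequences above held 1 ATTTA each and no T run, and 61.0% and 60.7% of their bases were A or T. The remaining MIR100HG peak, with a score of 190.4 and overlapping the best, held 1 ATTTA and 1 T run and was 68.3% A or T. The LINC00339 sequence held neither motif and was 46.3% A or T, and its other clear peak held neither too. The ZBED5-AS1 sequence had 2 T runs and no ATTTA, and the other peak of that gene had 2 T runs and 1 ATTTA. For LINC02987 the sequence above had 1 ATTTA and no T run, while its other peak, of nearly equal score, had 2 T runs and no ATTTA. The letters found therefore depended on which peak of a gene was read.

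The strength of a peak was given as a HOMER peak score, which was used only to order peaks within the list and is not an enrichment over IgG. The authors did not state its scale. Of 11121 scores under 100, 98.3% were whole multiples of 0.245 within the rounding of the printed score, where 39.3% would be by the spacing alone. The step was picked from a range of candidates as the best fit to these same scores, so these shares are a description and not a test. In such steps the lowest score on a non-coding exon was 36 and the median 207. The 487 peaks had a median score of 50.7, their quartiles were 19.3 and 116, and they ran from 8.81 to 1884.8. Across the whole list the median was 34.0, and 302 of the 487 peaks (62.0%) were at or above it, against 50.1% of all peaks. Peaks annotated to coding exons had a median of 44.0, those in 3′-UTRs 65.4 and those in introns 28.6. The median of the 487 was 1.15 times that of coding exon peaks, and the 95% interval of their median, 42.3 to 57.0, included the coding exon value, so the order of the 2 classes was not settled by the scores.

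Within the 487 peaks the score went with the kind of host gene. Peaks on isoforms of protein-coding genes had a median of 56.9 (quartiles 23.4 and 132), and 261 of 388 (67.3%) were at or above the median of the list. Peaks on lncRNA genes had a median of 21.2 (13.3 and 68.2), and 26 of 70 (37.1%) were at or above it. Pseudogene peaks had a median of 45.5 and none exceeded 106.5. The lowest score was 8.81 for both protein-coding and lncRNA hosts, and their ranges overlapped. The lower quartile, the median and the upper quartile were each lower for lncRNA hosts.

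**Figure D1:**
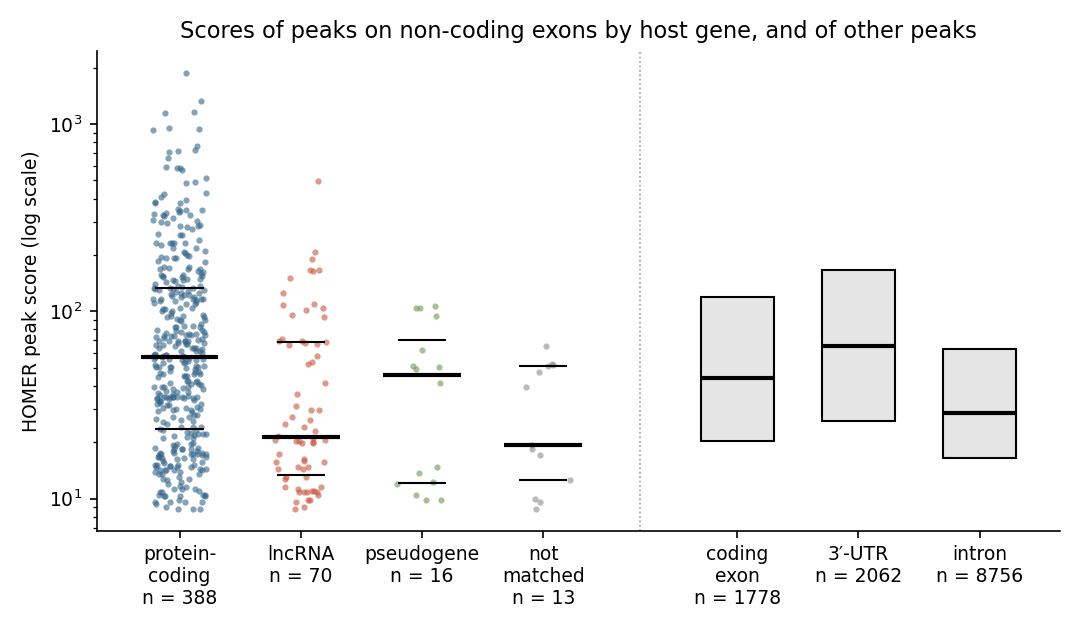
HOMER peak score, which has no stated unit, on a log axis for each of the 487 peaks by kind of host gene (points; thick line median, thin lines quartiles), with boxes from the lower to the upper quartile and the median for coding exon, 3′-UTR and intron peaks of the same list. Protein-coding hosts had a median of 56.9 and lncRNA hosts 21.2.

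The location of each peak was then read from the GENCODE 44 annotation, independently of the transcript named in the list. Of the 388 peaks on protein-coding hosts, 324 (83.5%, 79.5 to 86.9%) had their centre in a 3′-UTR, 42 (10.8%) in coding sequence and 14 in a 5′-UTR. The centre was in an exon of a protein-coding transcript of the host gene itself in 376 of 388 (96.9%, 94.7 to 98.2%). On most hosts, then, the non-coding isoform and the mRNA shared the sequence under the peak, and the list could not tell them apart. They were mostly at the end of the transcript, as 335 of the 388 (86.3%) lay in the last exon of the named transcript, against 35.7% of coding exon peaks and 99.9% of 3′-UTR peaks.

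In total 342 of the 487 peaks (70.2%, 66.0 to 74.1%) were centred in a 3′-UTR of some protein-coding transcript. Added to the 2062 peaks that the list annotated to 3′-UTRs (14.6% of all peaks), they would make 2404, or 17.0% (16.4 to 17.6%). Peaks of the other classes kept their annotation in the list for this sum. The 17.0% is therefore not a corrected 3′-UTR share of all peaks. An exon of a protein-coding gene on either strand was touched by 428 peaks (87.9%, 84.7 to 90.5%). Because peaks carried 1 strand each and a peak may be displaced along it, locations were also read at the trailing edge of the peak, which is the end behind its centre on the strand given. For protein-coding hosts this left 320 peaks in a 3′-UTR and 38 in coding sequence, while those in an intron went from 2 to 20.

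**Figure D2:**
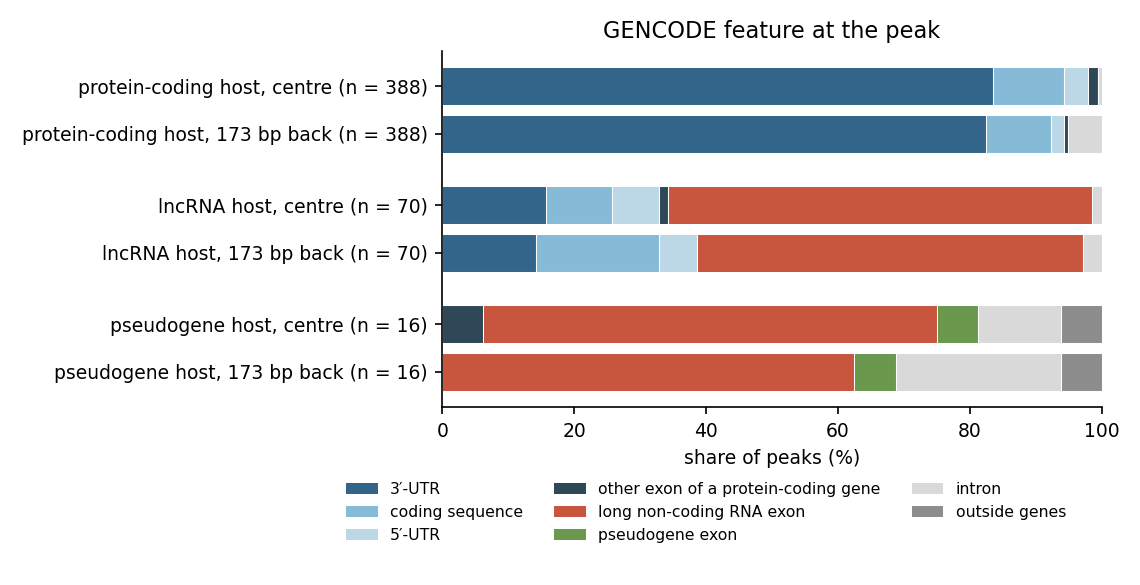
Share of peaks (%) by GENCODE feature at the peak centre and at its trailing edge (the bars marked back), for protein-coding, lncRNA and pseudogene hosts. 3′-UTRs made up 83.5% of the centres for protein-coding hosts, and lncRNA exons made up 64.3% for lncRNA hosts.

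The 10 protein-coding hosts with the highest scores included SFPQ, SRSF6 and SRSF1, which encode splicing factors, and their best peaks ran from 486.0 to 1884.8. PAFAH1B2, a catalytic subunit of platelet-activating factor acetylhydrolase, had the highest peak of all 487, with a score of 1884.8 at chr11:117167696-117168042 in the last of 3 exons of its non-coding isoform. A second peak scored 1323.7 in the same exon, and both were centred in the 3′-UTR. The gene column of the list named SIDT2 for these peaks, since it gives the nearest transcription start site and not the gene of the transcript.

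SFPQ, a splicing factor that is also a core protein of paraspeckles, had peaks of 1154.1 and 930.4, which were on exons 6 and 5 of 12 and centred in coding sequence. SRSF6 had peaks of 1142.6 and 957.6 on exon 7 of 7, and SRSF1 had peaks of 944.4, 767.2 and 724.8 on its 2 last exons. SRSF1 and SRSF6 are SR proteins, which bind exonic enhancers and whose own genes produce non-coding isoforms through which their levels are tuned. SRPK1, the kinase that phosphorylates SR proteins, had peaks of 655.6, 588.0 and 514.4. The best SRPK1 peak was in coding sequence on exon 11 of 16, and the others were in the 3′-UTR.

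Of 22 genes on a list of splicing regulators, 3 (SRSF1, SRSF6 and SFPQ) were hosts of the peaks described here, which was 13.6% against 1.00% of all 20020 protein-coding gene symbols in GENCODE. Counting any annotation, 9 of the 22 (40.9%) had a peak over an exon, against 15.6% of those symbols. The list was drawn up as regulators with non-coding transcripts, and a gene without one cannot host such a peak. The 13.6% and the 1.00% were thus not taken over like genes. The list was chosen with earlier results known and the shares were not adjusted for expression, so they are a description and not a test. The 9 genes with any peak over an exon included TRA2A, with 11 peaks up to 621.1, and HNRNPU, with a best score of 1087.5. Neither had a peak on a non-coding exon. GATC, a subunit of the mitochondrial amidotransferase that makes glutaminyl-tRNA, had a peak of 486.0 that also overlapped an exon of SRSF9 on the opposite strand.

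Other high hosts had unrelated roles. TPM3, a tropomyosin, had peaks of 722.4 and 709.7 in its 3′-UTR. C4orf46 had 4 peaks from 380.8 to 584.6, all in exon 2 of 2. APLP2, a relative of the amyloid precursor protein, had 1 peak of 581.2, and AMD1, the decarboxylase that supplies polyamine synthesis, had peaks of 487.7, 430.0 and 295.1. With an exact Poisson interval on the number of score steps the best AMD1 peak spanned 467 to 510 and that of GATC 465 to 508, so the order of this neighbouring pair was not resolved, and the same was true of C4orf46 (561 to 609) and APLP2 (558 to 605).

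The next hosts by score, named after their values were seen, had peaks of mixed position. GINS1, a subunit of the replicative helicase, had peaks of 383.0, 342.1 and 322.0 in the last of 8 exons and 1 of 27.2 in the first. SSR1, a subunit of the translocon-associated complex of the endoplasmic reticulum, had 1 of 378.6 in the last of 7 exons and 1 of 34.7 in the first. SLC25A32, a mitochondrial folate carrier, likewise had 331.6 and 328.7 in the last of 6 exons and 78.3 in the first. In these genes, as in CMPK1, the peaks near the 3′ end had several times the score of the peak on the first exon.

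For other hosts the non-coding exon peaks were in the last exon, although each of those named next also had peaks under other annotations. CALU, a calcium-binding protein of the secretory pathway, had peaks of 394.0, 353.9 and 327.7, and UFM1, a ubiquitin-like modifier, had peaks of 348.5 and 340.2, all in the last exon. TFAM, which packages mitochondrial DNA, had 1 of 313.7 there. FMR1, the RNA-binding protein lost in fragile X syndrome, had peaks of 168.9 and 156.4 on exon 16 of 16. LMNB1, which encodes lamin B1, had a peak on its first exon (135.8) as well as its last (171.1), and these were nearer in score than those of GINS1 or SSR1.

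Peaks on a host were often several, but these were not all separate sites. Overlapping peaks merged into 376 loci with a non-coding exon peak, and 107 (28.5%) of these held such peaks of both strands. Of the 203 protein-coding hosts 85 had 1 peak, 74 had 2 and 44 had more. The largest number was 5, which was reached by ATF2, BARD1, CMPK1, MPZL3, PTK7, RAP2C and the pseudogene EBLN3P. ATF2, a stress-responsive transcription factor, had all 5 in its last exon with scores from 119.7 to 185.2. CMPK1, a pyrimidine nucleoside monophosphate kinase, had 4 between 301.7 and 407.9 in the last exon and 1 of 50.4 in the first.

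Peaks of the same gene could be close in score or far apart. The 5 peaks of BARD1, the partner of BRCA1, scored from 100.6 to 146.1, those of RAP2C, a small GTPase of the Ras family, from 82.2 to 127.0, and those of MPZL3, an adhesion protein, from 19.6 to 23.2. PTK7, a receptor-like pseudokinase of Wnt signalling, had most of its peaks away from the 3′ end, as 3 of its 5 were on internal exons 4, 7 and 10 of 19 and scored between 30.6 and 35.0. CD274, which encodes the immune checkpoint ligand PD-L1, was picked out after its values were seen. It had 4 peaks in its last exon with scores of 54.1, 53.1, 50.9 and 46.5, which overlapped in pairs of opposite strand.

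Most protein-coding hosts also had peaks under other annotations, and these amounted to 702 further peaks on 152 of the 203 genes. In 103 of the 152 the highest peak of the gene was one on the non-coding exon, and in 49 it was another. FZD6, a Wnt receptor, was of the latter kind, with 4 peaks on non-coding exons up to 207.5 and another peak of 322.0. The other 51 genes had peaks on non-coding exons only, among them SRSF6, C4orf46 and GATC.

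The 12 peaks on protein-coding hosts that were not in an exon of a protein-coding transcript of the host were examined singly. CLK1, a kinase that phosphorylates SR proteins, had peaks of 34.0 and 22.8 on exon 3 of 11 of its non-coding isoform, where GENCODE has a retained intron. CASP8, the initiator protease of death-receptor apoptosis, had a peak of 50.7 at chr2:201276895-201277241 on exon 7 of 9, in a transcript annotated for nonsense-mediated decay. ZNF468 had a peak of 14.2 in another such transcript. SARS1, seryl-tRNA synthetase, had a peak of 89.8 in a GENCODE intron and 1 of 89.1 in a transcript without a defined coding sequence.

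Of the rest, GCOM1 is a locus whose transcripts run through into POLR2M, and its peaks of 241.8, 232.2 and 132.1 were in the 3′-UTR of POLR2M. The CA4 peak of 50.9 was in the 3′-UTR of USP32, which runs on the opposite strand. The peaks of FBXL4 (41.1, intron) and LDB2 (14.2, transcript without a defined coding sequence) made up the 12. Peaks that lay on sequence particular to a non-coding isoform of a coding gene were thus few.

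lncRNA genes gave a different picture, in which the highest scores mostly stood where a coding gene lay underneath. Of the 70 lncRNA peaks 29 (41.4%, 30.6 to 53.1%), in 22 genes, touched an exon of a protein-coding gene, and 41, in 25 genes, were clear of them, LINC00339 having peaks of both kinds. The overlapping peaks had a median score of 27.2 (quartiles 15.7 and 105) and the clear peaks 20.6 (11.5 and 53.8). The median of the list was reached by 13 of the 41 clear peaks (31.7%) and 13 of the 29 overlapping peaks (44.8%), against 50.1% of all peaks. Of the 12 lncRNA genes with the highest non-coding exon peaks, 8 had the best of these on an exon of a protein-coding gene. Of the 46 lncRNA genes 14 also had peaks under other annotations, and in 5 such a peak was higher. These included BCL10-AS1 (349.7), STARD7-AS1 (226.9) and TGFB2-OT1 (173.5), with the higher peak at a promoter in each.

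The highest lncRNA peak on a non-coding exon, at chr14:61747113-61747459, was assigned to HIF1A-AS2 with a score of 497.5 (476 to 520). HIF1A-AS2 is antisense to the end of HIF1A, which encodes the hypoxia-inducible factor, and the peak lay in the 3′-UTR of HIF1A, which runs on the opposite strand to the lncRNA. The kit used does not keep the strand of the RNA, so reads of such a pair cannot be told apart. CTBP1-AS, antisense to a transcriptional corepressor, had peaks of 166.7 in the 3′-UTR of CTBP1 and 93.7 on another of its exons.

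The same held for the next genes. STARD7-AS1 had a peak of 166.7 in the 5′-UTR of STARD7, which encodes a lipid transfer protein, and BCL10-AS1 had 1 of 102.0 in the 5′-UTR of BCL10, an adaptor of NF-κB signalling. OBI1-AS1 had 4 peaks of 125.0, 110.1, 108.4 and 104.7, all in the coding sequence of OBI1, a ubiquitin ligase that acts at replication origins. These 4 peaks overlapped in pairs of opposite strand. ELOA-AS1 had a peak of 66.6 in the 3′-UTR of ELOA, a subunit of the elongin complex.

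On the same strand as a coding gene were TGFB2-OT1 and TMX2-CTNND1. TGFB2-OT1 is a transcript of the 3′-UTR of TGFB2, the growth factor TGF-β2, and its peak of 164.9 (153 to 178) was within that 3′-UTR. TGFB2 itself was also a host, with a peak of 230.3 in its 3′-UTR for which the gene column named TGFB2-OT1. TMX2-CTNND1 is a readthrough transcript, and its peak of 95.7 was in the 3′-UTR of CTNND1, which encodes p120-catenin.

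The clear lncRNA peaks were led by MIR100HG. Its 3 peaks scored 206.3 (193 to 221), 190.4 and 150.7, all on exon 2 of 2 of the named transcript on chromosome 11, and the first and second overlapped each other. The interval of the best peak did not reach that of any other clear lncRNA gene. These intervals cover counting error only, and the list holds no replicate spread to set beside them. The peaks were away from the microRNAs themselves, since the hairpin of miR-125b-1 was 8.70 kb from the best peak, that of let-7a-2 55.5 kb and that of miR-100 61.2 kb.

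LINC00339 had clear peaks of 71.0 and 68.3 on exon 2 of 2 and another of 27.2 that overlapped an unnamed gene classed as protein-coding. ZBED5-AS1 had peaks of 69.5 and 67.8 on exon 3 of 3, and LINC02987 had peaks of 69.3 and 65.8 on exon 2 of 3. The best peaks of these 3 genes had intervals of 63.0 to 79.6, 61.6 to 78.1 and 61.4 to 77.8, so their order was not resolved. Below them the clear peaks included LOXL1-AS1 (58.0 and 52.4), LINC00261 (53.8), LINC00941 (36.0) and LINC01446, which had 4 peaks from 14.4 to 25.0. The lowest included C2orf74-DT (8.81 and 9.79) and LINC02535, whose lowest peak was 9.05.

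**Figure D3:**
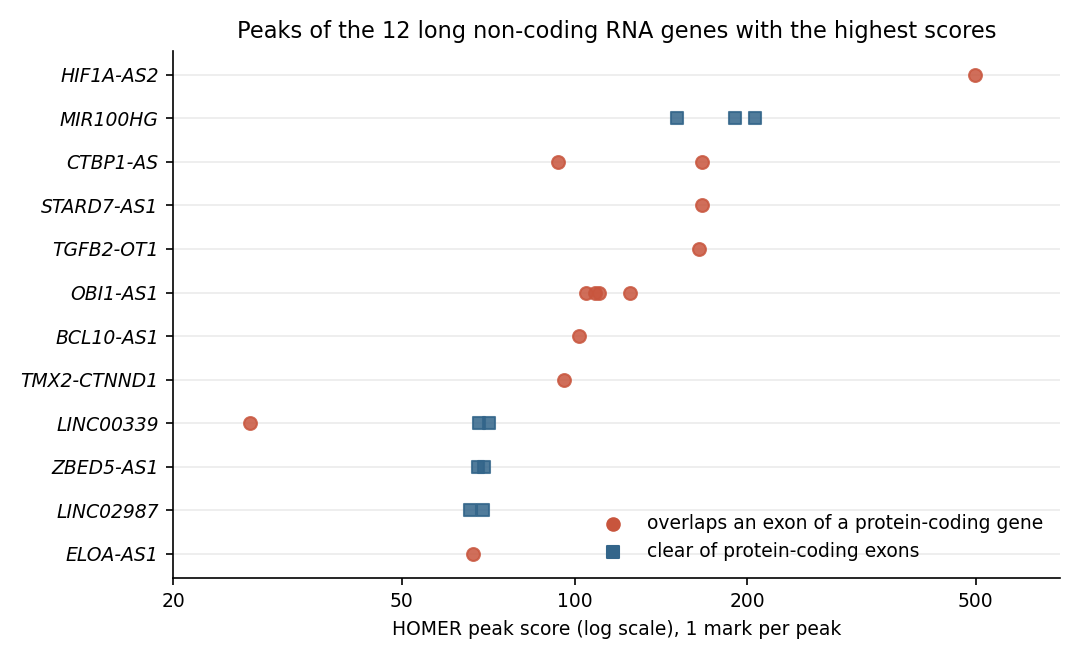
HOMER peak score on a log axis, with 1 mark per peak, for the 12 lncRNA genes with the highest scores. Circles overlap an exon of a protein-coding gene and squares do not, and MIR100HG, LINC00339, ZBED5-AS1 and LINC02987 are the genes with squares.

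No gene on the lists of nuclear and other well-known lncRNAs hosted a non-coding exon peak. In GENCODE as a whole 1.73% of 18842 lncRNA symbols had any peak over an exon. Only 0.244% hosted a peak on a non-coding exon, so lists this short cannot show a lower share. None of 8 nuclear lncRNAs, among them MALAT1, NEAT1 and KCNQ1OT1, had such a peak, and FTX, with a best score of 13.7 under an intron annotation, was the only 1 with any peak over an exon. None of 20 other well-known lncRNAs had one, 18 of which were in GENCODE under the name used. Of these, CYTOR had a peak of 40.4 annotated as intergenic and THUMPD3-AS1 1 of 10.5 annotated to an intron. Any exon peak was thus present in 12.5% of the first list and 10.0% of the second, above 1.73% but from few genes. None of 6 small structured RNAs such as RN7SK and RMRP had any peak over an exon. Absence from the list does not show that an RNA was unbound, since coverage was not analysed here.

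Of host genes of small nucleolar RNAs 12.5% had any peak over an exon, and of those of microRNAs 25.0%, against 1.73% of lncRNA symbols. Most of these host genes had no peak on a non-coding exon. None of 16 genes that host small nucleolar RNAs had such a peak, although SNHG16 had a peak of 1682.4 and SNHG29 1 of 986.0 over an exon, at positions annotated as promoters or termination sites. Of 12 microRNA host genes, MIR100HG was the only matched host, while MIR4435-2HG had a best score of 27.4 under an intron annotation and DLEU2 had 9 peaks over its exons up to 61.4. In the whole list 276 peaks were annotated to transcripts of 169 lncRNA genes, 95 at promoters, 86 in introns, 70 on non-coding exons and 25 at termination sites, so non-coding exons were a minority of the lncRNA peaks.

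Pseudogene peaks were compared by sequence with the transcripts of protein-coding genes, since reads of a close copy can be placed on either. Of the 16 peaks 11 had a match, and 5 matched with at least 95% identity over at least 100 bp. FKBP1AP1, a pseudogene of the gene for the FK506-binding protein FKBP1A, had the highest peaks, 106.5 and 50.7, which matched FKBP1A with 93.9% and 90.4% identity over almost their whole length. SRGAP2D (49.4) matched its duplicate SRGAP2B at 99.4% over its whole length, BMS1P20 (51.1) matched BMS1 at 96.7% over 184 bp, and TMED10P1 (13.7) matched TMED10 at 96.0% over 321 bp. CCNYL2 (14.7) matched DYDC2 at 90.9% over 220 bp. Where a pseudogene is a close copy of a coding gene its score is uncertain, since a read from that gene can map to the copy. A match alone does not make a pseudogene a copy of the gene matched, as for CCNYL2 and DYDC2.

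EBLN3P had the most peaks of the pseudogene hosts. It is a remnant of an ancient bornavirus-like insertion, and it had 5 peaks of 104.7, 103.8, 94.9, 62.2 and 41.6 on chromosome 9. GENCODE placed all 5 on an lncRNA exon, as it did the centres of 11 of the 16 pseudogene peaks, these 5 included. No coding match was found for the highest 4, whereas the lowest matched ZCCHC7 at 91.3% over 275 bp. The fifth peak without a match was that of RPL23AP53, with a score of 9.79.

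AU-rich and U-rich motifs were counted on the strand of the host gene over the whole length of each peak, which was the same for all. ATTTA was present in 230 of 474 peaks (48.5%, 44.1 to 53.0%), against 50.5% of all peaks of the list, 35.5% of coding exon peaks and 52.7% of 3′-UTR peaks. TTTTT was present in 68.8% (64.5 to 72.8%), against 68.4% of all peaks, 47.9% of coding exon peaks and 78.5% of 3′-UTR peaks. The heptamer TATTTAT, which contains ATTTA, was in 7.17% against 9.11% of all peaks. The non-coding exon peaks thus held ATTTA and TTTTT about as often as the list as a whole and more often than coding exon peaks.

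The motif share was also taken by the kind of sequence under the peak. Peaks of protein-coding hosts centred in a 3′-UTR held ATTTA in 54.0% (48.6 to 59.4%) and TTTTT in 75.6% (70.7 to 80.0%), close to the 3′-UTR peaks of the list, and those centred in coding sequence held ATTTA in 38.1% (25.0 to 53.2%) and TTTTT in 64.3% (49.2 to 77.0%), intervals that overlapped those of the 3′-UTR group. Clear lncRNA peaks held ATTTA in 21 of 41 (51.2%, 36.5 to 65.7%) and lncRNA peaks on a coding-gene exon in 9 of 29 (31.0%, 17.3 to 49.2%), and these intervals overlapped. The latter were read on the lncRNA strand, which for antisense genes such as HIF1A-AS2 is opposite to that of the coding gene. Their share on the strand of the coding gene was not taken. TTTTT was in 51.4% of all lncRNA peaks (40.0 to 62.8%), and its interval did not reach that of the peaks centred in a 3′-UTR. It was in 56.1% of the clear lncRNA peaks (41.0 to 70.1%) and 44.8% of those on a coding-gene exon (28.4 to 62.5%). Around the trailing edge of the peak it was in 54.3% for all lncRNA peaks and 72.5% for the protein-coding hosts centred in a 3′-UTR.

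Base composition also differed between these groups. Mean GC content was 38.8% (SD 6.78, n = 324 peaks) for protein-coding hosts centred in a 3′-UTR, 42.7% (SD 8.52, n = 42) for those centred in coding sequence, 43.3% (SD 6.97, n = 41) for clear lncRNA peaks and 47.6% (SD 15.0, n = 29) for lncRNA peaks on a coding-gene exon. Over the list it was 41.6%, and it was 46.8% in coding exon peaks. Taken in the order above, the ATTTA shares of these host groups were 54.0%, 38.1%, 51.2% and 31.0%. The intervals of the coding sequence group and the clear lncRNA peaks overlapped. The part of GC content in the motif shares was not tested, and an occurrence of a motif in a window of this size does not mark a binding site.

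**Figure D4:**
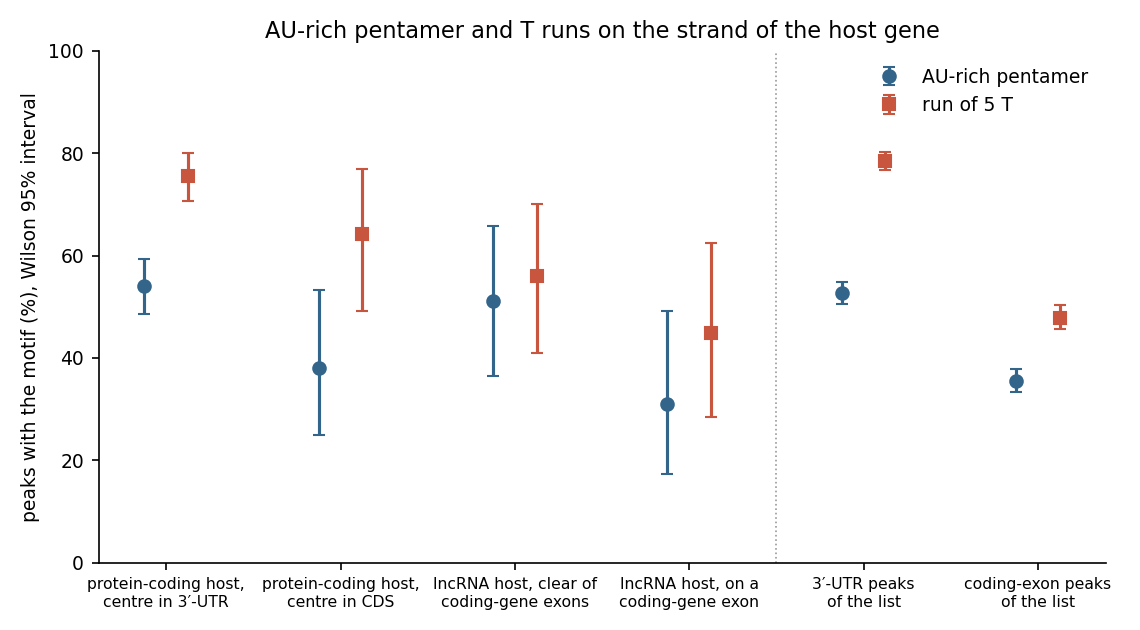
Share of peaks (%) holding ATTTA or a run of at least 5 T on the strand of the host gene, with Wilson 95% intervals that cover counting error only, by kind of host and location, and for 3′-UTR and coding exon peaks of the list. ATTTA was in 54.0% of protein-coding host peaks in a 3′-UTR and 31.0% of lncRNA peaks on a coding-gene exon. The latter were read on the lncRNA strand, also where the coding gene runs on the opposite strand.

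Peaks fell on both strands. There were 251 on the plus strand and 236 on the minus strand, and 253 of 474 (53.4%, 48.9 to 57.8%) had the strand of the host gene, against 53.2% in the list as a whole. The share was 58.3% (52.9 to 63.6%) for protein-coding hosts centred in a 3′-UTR and 31.0% (19.1 to 46.0%) for those centred in coding sequence, intervals that included the 59.0% and 41.6% of the 3′-UTR and coding exon peaks of the list. Strand therefore did not assign a peak to a gene on either side of a sense and antisense pair.

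Some of the peaks came in pairs of opposite strand. Overlapping peaks of the list merged into loci, of which 376 held a non-coding exon peak and 107 (28.5%) held such peaks of both strands. The same share over all loci of the list was not taken. For 150 of the 236 minus-strand peaks there was a plus-strand peak on the same exon. It lay at the higher coordinate in 125 of them and within the length of a peak in 105. The median offset was 171 bp (quartiles 57 and 258), near the distance from the centre of a peak to its edge. The MIR100HG, LINC00339, ZBED5-AS1 and LINC02987 peaks each included such a pair.

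Exon content around the peaks was uneven along the strand of the peak. The value at the centre follows from the choice of peaks and is no result. For protein-coding hosts, the position 200 bp back against the strand was in an exon of the host for 94.1% and the position 200 bp forward for 83.2%. At 340 bp the values were 93.8% and 75.8%, and at 400 bp 79.9% and 72.9%. For lncRNA hosts they were 83.8% back and 80.9% forward at 200 bp, 79.4% and 58.8% at 340 bp, and 72.1% and 55.9% at 400 bp. In both classes the share was higher behind the peak than ahead of it at these 3 distances. The Wilson intervals of protein-coding hosts were apart at 200 and 340 bp and overlapped at 400 bp, and those of the 68 lncRNA peaks overlapped at all 3.

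**Figure D5:**
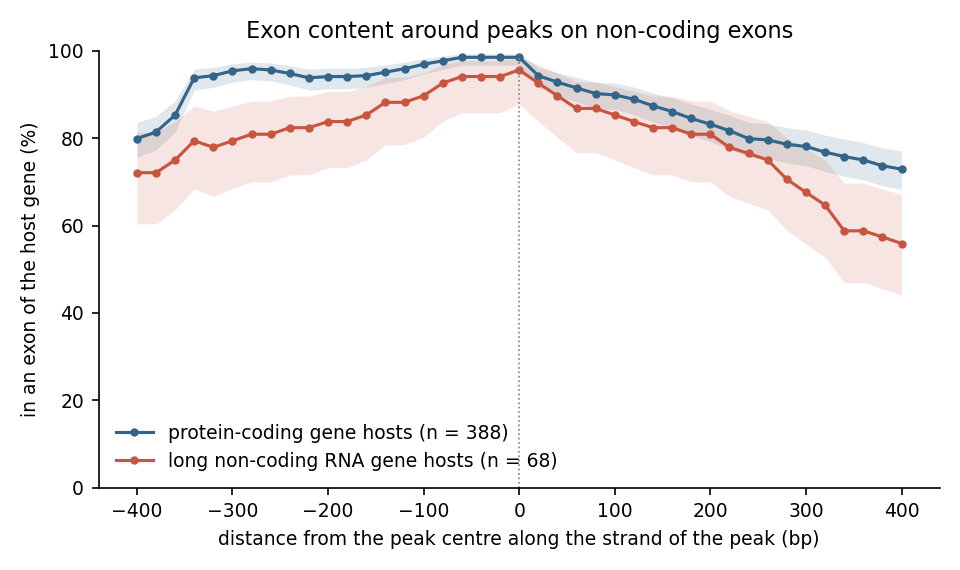
Share of positions (%) in an exon of the host gene at distances from 400 bp back to 400 bp forward of the peak centre along the strand of the peak, for protein-coding and lncRNA hosts, with Wilson 95% bands. For protein-coding hosts the share was 94.1% at 200 bp back and 83.2% at 200 bp forward.

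Gene names in the list needed care for this class. The gene column, which follows the nearest start site, named another gene than that of the transcript for 221 of 474 peaks (46.6%, 42.2 to 51.1%), with 47.4% for protein-coding, 48.6% for lncRNA and 18.8% for pseudogene hosts. It named a microRNA for 26 peaks (5.34%), although 0 of the 487 peaks overlapped a microRNA hairpin. The focus ratio, HOMER's measure of how tightly the reads of a peak sit around its centre, had a median of 0.558 for the 487 peaks and 0.542 for all peaks, and was 0.610 for pseudogenes.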

How the data were processed

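RIP-seq was carried out on 2 HuR and 2 IgG samples, grouped by antibody per the labels. Per the labels the authors used STAR, HOMER and hg38. Versions, peak-calling settings and any pooling are not given in the sources used here. The authors deposited 1 HOMER table for the whole series, with a peak score of unstated scale, a focus ratio that is a fraction from 0 to 1, and the distance in bp to the nearest start site. Depth per sample is unknown and no count test was possible, so no p-values are given.

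Peaks annotated to non-coding exons were taken as the set. Host genes came from the RefSeq table (GRCh38.p14) by the transcript of the annotation. Locations came from GENCODE 44 on hg38, with coding sequence of protein-coding transcripts ranked first, then 3′-UTR and 5′-UTR, other exons and introns, at the peak centre and at the trailing edge of the peak. An overlap was at least 1 bp. Exact Poisson 95% intervals on single scores treat a step of 0.245 as 1 count. They and the Wilson intervals cover counting error only, as reads carry no molecular identifiers. Pseudogene peaks were compared with GENCODE transcripts of protein-coding genes by blastn 2.17.0 (E-value at most 1e-10). Motifs were searched on the strand of the host gene.

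The text names the 12 lncRNA, 6 pseudogene and 10 protein-coding hosts with the highest scores, the hosts with the most peaks (a limit of 5 genes was set, and all those tied at the top are named) and the members of 6 gene lists. Other genes were chosen after their values were seen. The set, the lists and the rules were chosen with earlier results of these data known. The tools were Python 3.11.15, pandas 2.3.3, numpy 2.4.6, pysam 0.24.0, scipy 1.17.1 and matplotlib 3.10.9, and the functions were tested on simulated data. Alternatives covered the score filter, merged loci, genes counted once, the gene type, the motif, the shift and the overlap rule.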

Additional observations from a re-analysis of the deposited data

How the results depend on the processing

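Of 21 alternatives tried for 7 results, 11 moved the value, 2 reversed its direction and 8 did neither, where a count was taken as moved only past 1.5 times and a share past its interval. Scores at or above the median of the list left 302 of the 487 peaks, raised their share of the list from 3.44% to 4.26% and lowered the share on lncRNA genes from 14.4% to 8.61%. With 1 peak per merged locus there were 349 peaks, within that limit, and their share of the list was 2.96%. The score ratio to coding exon peaks was 1.15 over all peaks and turned to 0.948 with the best peak of each host gene and to 0.483 with lncRNA hosts only. Counting only lncRNA peaks clear of coding-gene exons, an alternative chosen after seeing the data, the lncRNA share was 8.42% of peaks and 9.62% of host genes. The share with a motif was 48.5% for ATTTA, 68.8% for TTTTT, 7.17% for TATTTAT, 43.9% for ATTTA around the trailing edge of the peak and 42.9% for ATTTA on lncRNA hosts. Overlap with a protein-coding exon was 87.9% on either strand and 82.3% on the strand of the host gene. The share on the strand of the gene stayed between 53.4% and 55.1%. The causes were not tested, beyond the smaller set of peaks that each alternative uses. No paired analysis was possible because the table pools all samples, and for the same reason no replicate could be left out. Depth is unknown, so absence of a peak sets no limit on binding. Scores near the lowest of 8.81 rest on the fewest steps.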
